A study of Mus musculus with 4 samples.

Results

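C3 Dpep1 fibroblasts of the adult mouse Achilles tendon are described here from droplet single-cell RNA sequencing, in which every transcript molecule is counted by a unique molecular identifier (UMI). They were chosen by measured counts: a minimum of 500 genes and 1000 UMIs, no more than 15% mitochondrial UMIs, then Pdgfra of at least 1, C3 of at least 3 and Inmt plus Dpep1 of at least 2 UMIs, with Pi16 plus Dpp4 below 3, Tnmd below 2, Ptprc at most 1 and Cdh5 at 0. The rule found 128 cells, 15 in the injury library and 113 in the control library of adult tendon, among 36052 cells past the quality limits in all 4 libraries. The groups were Achilles tendon of adults aged 6 to 8 weeks with a tendon injury, the same tendon of uninjured adults, and neonatal tendon at postnatal day 3 with and without injury. Strain, sex, the kind of injury, the time after it and the number of mice pooled are not given in the sources used here. Each group is 1 library, so no difference between libraries has a replicate check, no p-value is given, and all intervals are 95% and cover counting error only.

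Fibroblasts that lie between the collagen fascicles and around vessels of a tissue differ from the cells that build its main matrix. In many mouse organs a Pi16 and Dpp4 population, often called universal fibroblasts, is set apart from tissue-resident fibroblasts that make basement membrane collagens, chemokines and complement. In tendon, the main matrix is built by tenocytes, which express tenomodulin (Tnmd). Complement C3 is the central protein of the complement cascade, Inmt methylates indole amines, Dpep1 is a dipeptidase of the cell surface, Apod is a lipid-binding lipocalin and gelsolin (Gsn) severs actin filaments. Of these, C3, Inmt and Dpep1 chose the cells, so their levels are descriptions only, and Apod and Gsn were named as markers with values of these cells known.

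The name held for the control cells and only in part for the injured ones. Inmt had no UMI in any of the 15 injured cells, against at least 1 UMI in 52 of 113 control cells. A count of 0 among 294152 UMIs allows up to 10.2 CPM (UMIs per 1000000 UMIs of the summed cells), while the control cells had 298 CPM. Dpep1 carried the rule after injury, with 2 to 8 UMIs a cell in all 15 injured cells and a median of 3 UMIs in the control cells, of which 100 had a UMI. For that reason the cells are named here by C3 and Dpep1. Inmt was nearly missing from the whole injury library, with 4 UMIs in 4625 cells, against 1254 UMIs in 6113 control cells. The "interstitial" of their working name is a place in the tissue, which these counts do not measure.

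C3 ranged over 4 to 33 UMIs in the injured cells, with a median of 16, and over 3 to 74 UMIs in the control cells, with a median of 11. Apod, which the rule did not use, was present in all 15 injured cells at 588 CPM, and in 106 of 113 control cells at 2635 CPM. It was at 80.9 CPM in the other fibroblasts of the injury library and 929 CPM in those of the control library. Gsn reached 3505 CPM in the injured C3 Dpep1 cells and 29539.8 CPM in the control ones, against 585 CPM and 13255 CPM in the other fibroblasts of the same libraries. Apod and Gsn were thus higher in the C3 Dpep1 cells than in the other fibroblasts of either library, and lower after injury in both kinds of cell. "Other fibroblasts" are the remaining cells with Pdgfra, at most 1 Ptprc UMI and no Cdh5, 1494 in the injury library and 2346 in the control library, universal fibroblasts and tenocytes with Pdgfra included.

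The cells made up 0.324% of the injury library (15 of 4625, exact Clopper-Pearson interval 0.182% to 0.534%) and 1.85% of the control library (113 of 6113, 1.53% to 2.22%). Among fibroblasts by the Pdgfra gate they were 0.994% in the injury library (0.557% to 1.63%, of 1509) and 4.6% in the control library (3.8% to 5.5%, of 2459). Depth sets how often such a rule is met, and the injured fibroblasts were the deeper ones, with a median of 22173 UMIs against 12333 UMIs in control fibroblasts. After each cell was thinned to 3000 UMIs, 1 injured and 42 control cells met the rule, of 732 injured and 1091 control fibroblasts that also met the Pi16, Dpp4 and Tnmd limits. C3 of at least 3 UMIs was met by 17.1% of 1032 such injured fibroblasts and 23.3% of 1108 control ones at full depth, and by 5.6% and 13.7% after thinning. Inmt plus Dpep1 of at least 2 UMIs was met by 2.23% of the injured and 24.8% of the control fibroblasts at full depth, and by 0.273% and 14.5% after thinning. The Inmt and Dpep1 limit, more than the C3 limit, separated the libraries. In neonatal tendon, 1 cell of the injury library and 1 cell of the control library passed the same rule. There, C3 of at least 3 UMIs was met by 0.691% of 3907 injured and 0.61% of 3114 control fibroblasts, and Dpep1 by at least 1 UMI in 4.56% of the injured and 9.83% of the control ones. Neonatal fibroblasts had median depths of 7190 UMIs in the injury and 11853 UMIs in the control library, and after thinning Dpep1 was found in 2.85% of 2948 injured and 2.9% of 2072 control ones.

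Of the 15 injured cells, 8 had exactly 2 Inmt and Dpep1 UMIs, the lowest number the rule allows, with 515 CPM of Cxcl14 and 2433 CPM of Gsn. Another 23 injured cells just outside, with 1 such UMI, had 624 CPM of Cxcl14 and 579.6 CPM of Gsn. Cxcl14 was thus as high outside this limit, while Gsn was lower there. Apod (613 CPM inside and 236 CPM outside), Lpl (324 and 127 CPM) and Apoe (106 and 53.7 CPM) were lower outside as well. In the control library, 8 cells had exactly 3 C3 UMIs, with 20111 CPM of Gsn and 2799 CPM of Apod, while 14 cells just outside with 2 C3 UMIs had 32966 CPM of Gsn and 1469 CPM of Apod. At the other limit, 19 control cells had exactly 2 Inmt and Dpep1 UMIs and 655 CPM of Cxcl14, and 23 cells with 1 such UMI had 432 CPM. The limit on Pi16 and Dpp4 kept out 20 injured and 140 control cells that met all other conditions. Those control cells had 158 CPM of Cxcl14 and 1259.6 CPM of Apod. When the C3 limit is dropped, 23 injured and 275 control cells remain, and C3 itself, which then chose none of them, was at 542 CPM in the injured (477 to 614) and 627 CPM in the control cells (598 to 658).

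**Figure D1:**
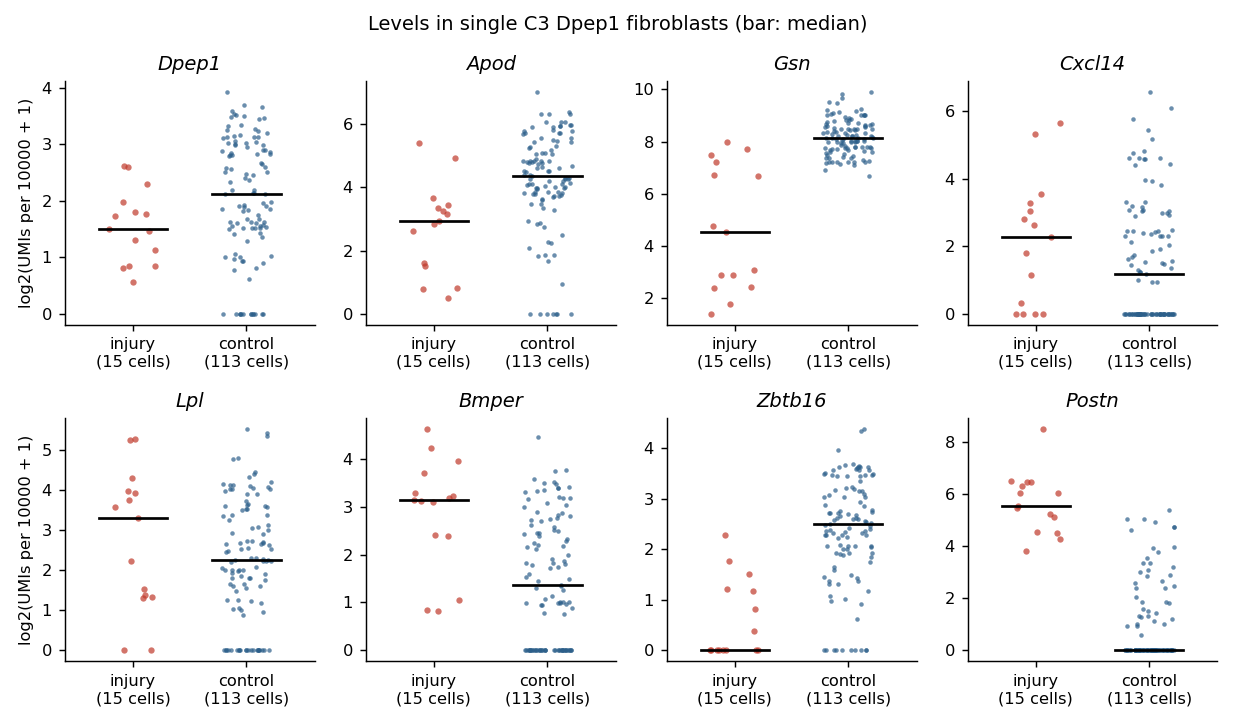
Level of 8 genes in each C3 Dpep1 fibroblast, as log2 of UMIs per 10000 plus 1, with 15 injured cells left and 113 control cells right in each panel; points are cells and bars are medians. Gsn and Zbtb16 sit lower and Postn higher in the injured cells, while Cxcl14, Lpl and Bmper overlap.

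The 15 injured cells had 6758 to 42691 UMIs (median 13898) and the 113 control cells 1796 to 25747 (median 10947). Summed, they gave 294152 and 1300787 UMIs. A doublet caller run on each adult library removed none of the 128 cells. The adult libraries share 3 barcodes and none belongs to a C3 Dpep1 cell, but 1 injured and 1 control cell carry a barcode that also occurs in the neonatal injury library. No cell had a Ptprc UMI, although the rule allows 1. Summed markers of macrophages were at 64.6 CPM in the injured and 13.1 CPM in the control cells, with 6 and 4 of 10 markers at 0, against 12813 and 15731 CPM in immune cells of the same libraries, taken as cells with at least 2 Ptprc UMIs and no Pdgfra UMI. Endothelial markers summed to 20.4 CPM in the injured and 16.1 CPM in the control cells, with 5 and 1 of 8 at 0. Mural markers summed to 54.4 and 90.7 CPM, with 3 and 1 of 8 at 0. Lymphocyte markers were all at 0 in both. Neutrophil markers summed to 6.8 CPM in the injured cells, with 4 of 6 at 0, and all were at 0 in the control cells.

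Against the other fibroblasts of their libraries, the C3 Dpep1 cells had more of Cxcl14, Bmper and Lpl and less of Prg4 and Thbs4. In both adult libraries 338 of 12157 genes were at least 2-fold higher than in the other fibroblasts, a background of 2.78%, and 352 were at least 2-fold lower, or 2.9%. A gene was counted with at least 50 UMIs in the groups set side by side, and the genes of the rule were left out. The order was led by the chemokines Ccl19 and Cxcl14, with Chrm3, a muscarinic receptor found in 2 of 15 injured cells, Bmper, a binder of bone morphogenetic proteins, and Lpl, the lipoprotein lipase. Cxcl14 was at 704 CPM in the injured C3 Dpep1 cells against 70.9 CPM in the other injured fibroblasts, and at 737 CPM against 68.7 CPM in the control library. These are log2 ratios of 3.32 and 3.42. Lpl was at 704 CPM against 67.8 CPM in the injury library and 789.5 CPM against 91.8 CPM in the control library. Bmper was at 643 CPM against 67.9 CPM in the injury library and 349 CPM against 39.3 CPM in the control library. The log2 ratios of all 3 lay between 3.11 and 3.42 in each library on its own.

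Cxcl14 was not in every cell, however. It was found in 11 of 15 injured and 60 of 113 control cells, while 16.1% of other injured fibroblasts and 16.2% of other control fibroblasts had it. Immune cells without Cdh5, which should lack it and so show the level that free RNA can give, had a Cxcl14 UMI in 3.57% of 1148 cells of the injury library and 0.746% of 268 cells of the control library, at median depths of 7782 and 8784 UMIs. Bmper was in all 15 injured and 74 control cells, against 1.74% and 0.746% of the immune cells. Lpl was in 13 injured and 91 control cells. Macrophages are known to make Lpl, and the immune cells had 546 CPM in the injury library and 117 CPM in the control library.

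Lower down the same order came Ndnf, a secreted factor, the retinol and alcohol dehydrogenases Adh1 and Adh7, the growth factor Fgf10, the B cell chemokine Cxcl13, complement C4b, the pentraxin Ptx3, the iron reductase Steap4, the peptidase Mme (neprilysin) and Astn2. Steap4 was in all 15 injured cells at 381 CPM, against 66.9 CPM in other injured fibroblasts, and in 88 control cells at 253 CPM, against 29.3 CPM in other control fibroblasts. C4b was at 296 CPM against 51.1 CPM in the injury library and 444 CPM against 52.1 CPM in the control library. C4b has a near-identical neighbour, C4a, and Ccl19 has near-identical copies in the mouse genome, so the counts of both are uncertain. Ptx3 was at 880.5 CPM against 154 CPM in the injury library and 113 CPM against 15.6 CPM in the control library, but 7 injured and 20 control cells held all of it. Several of the 15 rest on few molecules after injury. Adh7 had 3 UMIs in 1 injured cell, Adh1 had 5 UMIs in 4 and Ccl19 had 6 UMIs in 4, against 86, 142 and 84 UMIs in the control cells. Cxcl13 had 9 UMIs in 2 injured cells and 94 UMIs in 24 control cells.

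**Figure D2:**
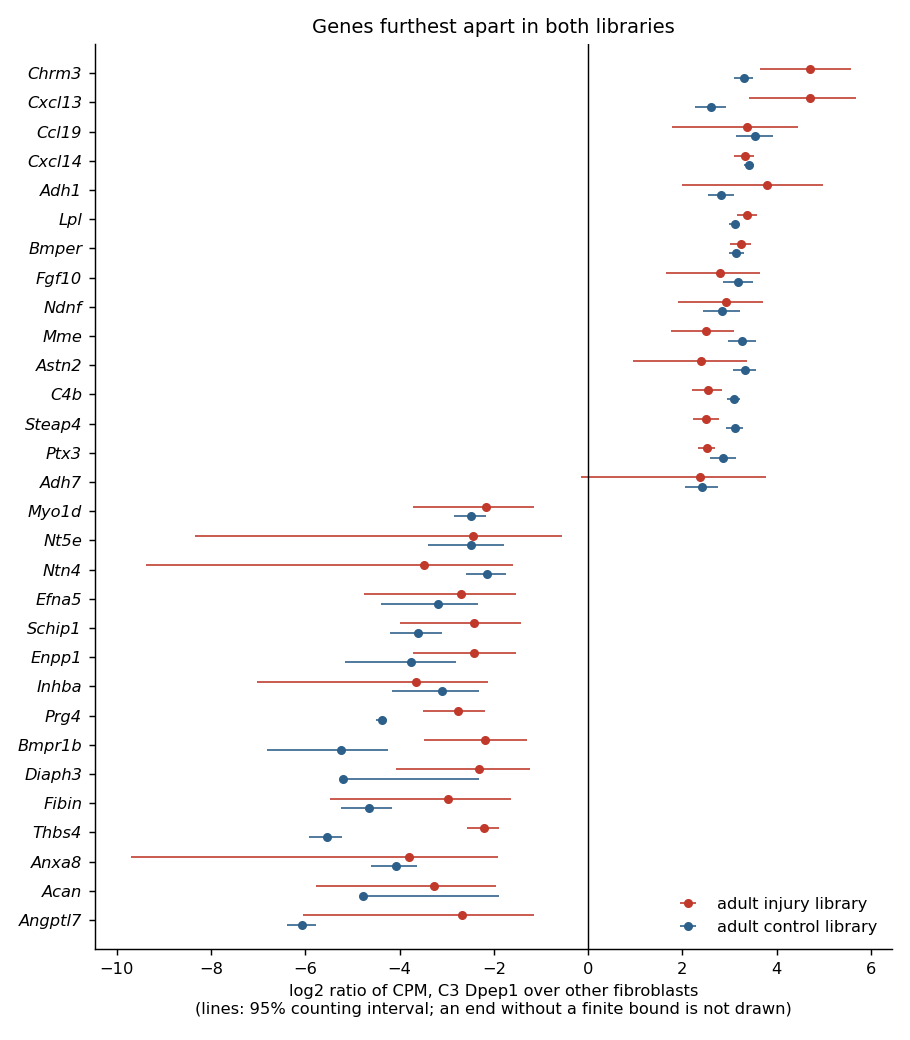
Log2 ratio of CPM of C3 Dpep1 fibroblasts over other fibroblasts of the same library, for the 15 genes highest and the 15 lowest in both, with 95% counting intervals; the adult injury library is in red above the adult control library in blue. The 30 genes point the same way in both libraries by the way they were chosen, and the injured intervals are wider.

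Among the 15 lowest genes were several of tendon, cartilage or joint lining matrix. The Tnmd limit of the rule kept tenocytes out of the C3 Dpep1 cells but not out of the other fibroblasts. Low values of tenocyte genes were thus set in part by the choice. Angptl7, a secreted protein abundant in tendon cells, was at 6.8 CPM in the injured C3 Dpep1 cells against 54.1 CPM in other injured fibroblasts, and at 72.3 CPM against 4849 CPM in the control library. The lubricant proteoglycan Prg4 was at 68 CPM against 475 CPM in the injury library and 425 CPM against 8859 CPM in the control library. Thrombospondin Thbs4 was at 252 CPM against 1162 CPM in the injury library and 55.4 CPM against 2618 CPM in the control library. Acan, the cartilage proteoglycan aggrecan, was found as 3 UMIs in 1 injured cell and in no control cell. Anxa8 was also in 1 injured cell, so in the injury library both passed the limits through the other fibroblasts. Anxa8, Inhba (a chain of activin), Fibin, Efna5, Nt5e, Schip1, Enpp1, Diaph3, Bmpr1b, Myo1d and Ntn4 completed the 15.

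Fixed lists of genes placed these single genes in groups. Of 17 chemokines, 8 were at least 2-fold higher and 2 lower than in other fibroblasts of the injury library (17 counted, median log2 ratio 0.86), and 11 higher and 2 lower in the control library (15 counted, median 1.93). The median over all genes was -0.01 in the injury library and -0.04 in the control library, where 6.75% of genes were at least 2-fold higher and 11.3% lower. In the injury library, with 15 cells behind each ratio, 13.5% of genes were at least 2-fold higher and 12.1% lower. Ccl7, a monocyte attractant, was 1.70 higher (log2) in the injury and 3.37 in the control library, and Cxcl12, the ligand of Cxcr4, 0.86 and 2.33. Of 10 markers of parenchymal fibroblasts, 7 were higher and none lower in the injury library, and 6 higher and 2 lower in the control library. The basement membrane list had 8 of 15 higher and none lower in either library, among them Col4a1 (2.11 in the injury and 2.30 in the control library), Col4a2 (1.87 and 1.95) and the laminin chain Lama2 (1.65 and 1.17). Col4a1 and Col4a2 are also among the parenchymal markers, as is Cxcl14, so these lists overlap and their counts are not separate.

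The lipid list lay above the other fibroblasts in both libraries. Of 16 genes for lipid transport and uptake, 10 were at least 2-fold higher and none lower in the injury library (median 1.67), and 7 higher and none lower in the control library (median 0.80). Abca8a, a lipid transporter, had log2 ratios of 2.94 and 1.31, and the apolipoprotein Apoe 0.43 and 2.76. Of 25 detoxification and redox genes counted, 15 were higher and none lower in the injury library (median 1.33), and 11 higher and 3 lower in the control library (median 0.84). Mgst1, a microsomal glutathione transferase, was in all 15 injured cells and 99 control cells, with ratios of 2.12 and 1.14. The complement list had 8 of 15 higher and 1 lower after injury, and 6 of 12 higher and 5 lower in the control library. C1s1, a protease that starts the classical pathway, was 2.33 and 2.36 higher, C2, which it cleaves, 1.97 and 3.51, and factor B (Cfb), of the alternative pathway, 2.57 and 2.14.

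Growth factor ligands went both ways, 10 of 32 higher and 10 lower in the injury library (median -0.11), and 9 of 32 higher and 9 lower in the control library (median 0.37). Antagonists of BMP and TGF-beta had 2 of 13 higher and 4 lower in the injury library, and 1 of 14 higher and 1 lower in the control library. Among single genes, chosen after their values were seen, Igf1 was 1.59 higher in the injury and 1.72 in the control library, the interleukin 1 receptor Il1r1 1.79 and 2.52, stem cell factor (Kitl) 1.84 and 2.41, follistatin (Fst) 2.07 and 2.23, and Fgf7 1.85 and 1.97. Of 8 Wnt antagonists, 4 were higher and 2 lower in the injury library, and 4 higher and 3 lower in the control library. Of these, Sfrp1 (1.75 and 3.60) and Sfrp2 (3.23 and 1.84) were higher in both. Pparg, a receptor of fatty acids, was 2.14 and 3.87 higher, on 8 injured and 46 control UMIs. Of 12 tenocyte markers counted, none was higher in either library, and 8 were lower after injury (median -2.90) and 11 in the control library (median -5.76). The Tnmd limit of the rule kept tenocytes out of these cells but not out of the other fibroblasts, so this was set in part by the choice. Universal fibroblasts have the same Tnmd limit. Against them, 3 of 6 tenocyte markers were higher and 1 lower in the injury library (median 0.37). In the control library 1 of 9 was higher and 6 were lower (median -1.39). Over all genes the medians against universal fibroblasts were -0.04 in the injury and -0.12 in the control library. The share of all genes 2-fold apart from them in each library alone was not computed, so these counts have no background. Against the other fibroblasts, all 6 synovial lining markers counted were lower in the control library and 3 of 6 in the injury library. The contractile list had none higher and 9 of 14 lower in the injury library, and 7 of 13 lower in the control library.

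**Figure D3:**
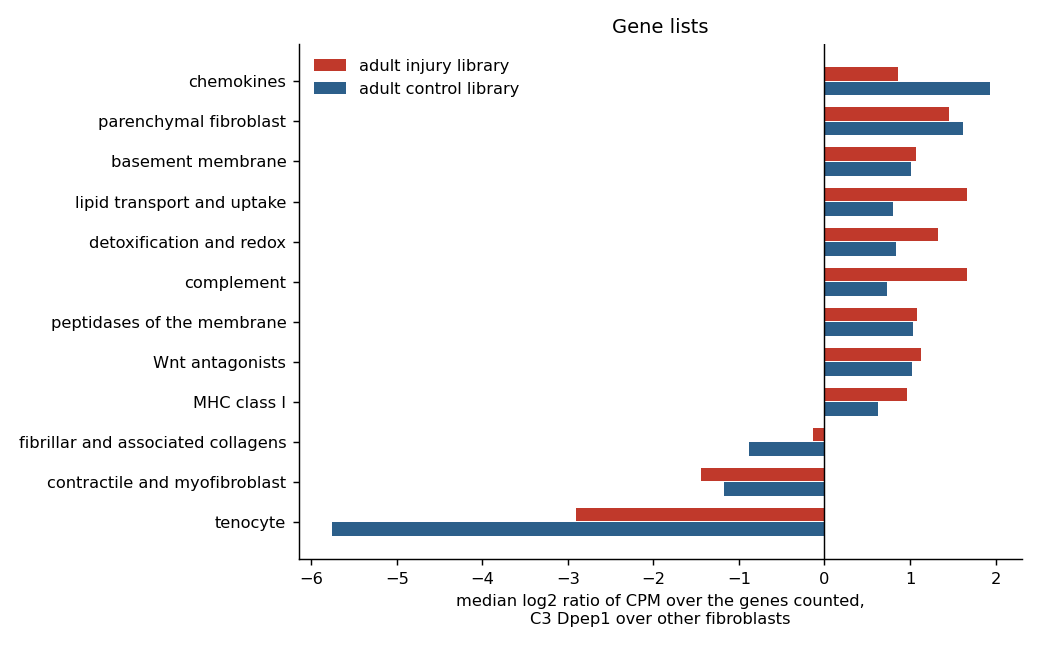
Median log2 ratio of CPM, C3 Dpep1 fibroblasts over other fibroblasts, for 12 gene lists, in the adult injury library (red, above) and the adult control library (blue, below). Chemokine, basement membrane, lipid and complement lists lie above 0 in both libraries. The tenocyte list is the lowest in both, set in part by the Tnmd limit of the rule.

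Universal fibroblasts and tenocytes were also set against the C3 Dpep1 fibroblasts one at a time. Against universal fibroblasts (295 injured and 717 control cells with at least 3 Pi16 and Dpp4 UMIs and under 2 of Tnmd), 172 of 9412 genes were at least 2-fold higher in both libraries, or 1.83%, and 256 lower, or 2.72%. Sfrp1, Mme, Bmper, Tmem176b, Cxcl14, Lpl, Cyp7b1 and Penk were the highest, and Anxa8, Efna5, Wnt2, Sv2c, Arl4d, Sema3e, Inhba and Islr2 the lowest. Some lists were closer to universal than to other fibroblasts. Median ratios in the injury and control libraries were 1.06 and 0.65 for lipid transport, 0.63 and 0.74 for basement membrane, and 0.68 and 0.64 for detoxification. Those of chemokines (1.04 and 1.90), complement (1.21 and 1.03) and parenchymal markers (1.53 and 2.14) were not closer in both libraries. Against tenocytes (246 injured and 1505 control cells with at least 2 Tnmd UMIs, with or without Pdgfra), 307 of 9384 genes were higher, or 3.27%, and 356 lower, or 3.79%. Among the highest were Sult5a1, Abca8a, Lpl, Bmper and Col6a6, and the lowest were Angptl7, Wif1, Acan, Thbs4, Prg4, Fibin, Myo1d and Chodl.

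Apart from the genes of the rule, the control cells also lay near each other. Distances were taken over 30 principal components of 2000 variable genes, with the rule's genes left out, among all Pdgfra-gate fibroblasts of a library. Of the 15 nearest neighbours of a control C3 Dpep1 cell, 38.6% on average were C3 Dpep1 cells, which are 4.6% of that library's fibroblasts. Another 16.3% met every condition but the C3 limit, against 6.59% of the fibroblasts. Tenocytes with Pdgfra were 4.6% of the neighbours and 25.8% of the fibroblasts, and universal fibroblasts 22.2% and 29.2%. For the injured cells, 12% of neighbours were C3 Dpep1 cells, which are 0.994% of the fibroblasts there, and 10 of the 15 had at least 1 such neighbour. Universal fibroblasts were 22.7% of the injured cells' neighbours and 19.5% of the fibroblasts, and tenocytes with Pdgfra 18.2% and 12.1%. Tenocytes were thus above their share around injured cells and below it around control cells. The rest of the fibroblasts gave 43.1% of the injured cells' neighbours, against a share of 66.9%, and at least 8 of the 15 neighbours of 6 injured cells. No injured cell had 8 or more C3 Dpep1 neighbours, which 40 control cells had.

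The start regions of the genes that led each order were read from RefSeq, as 250 bases before and 50 after each gene's start on GRCm38.p6, an older build than the GRCm39 of the count files. Of the 15 genes highest over other fibroblasts 12 were read, of the 15 highest after injury 10, and of the 15 lowest after injury 9. The rest had no entry or are not reported here. The sequences, 5′ to 3′ on the strand of the gene, are those of Ccl19 (chr4:42756316-42756615, minus strand), Cxcl14 (chr13:56296502-56296801, minus strand), Tnn (chr1:160153526-160153825, minus strand) and Frmpd4 (chrX:168577185-168577484, minus strand), and capitals mark the motifs named after them. They are shown because they come first in their orders among the genes read.
Ccl19: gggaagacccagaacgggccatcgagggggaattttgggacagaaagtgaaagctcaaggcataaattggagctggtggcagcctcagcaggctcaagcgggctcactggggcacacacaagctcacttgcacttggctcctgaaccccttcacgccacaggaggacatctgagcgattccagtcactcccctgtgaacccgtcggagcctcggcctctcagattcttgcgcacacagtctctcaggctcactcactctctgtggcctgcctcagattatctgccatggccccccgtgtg
Cxcl14: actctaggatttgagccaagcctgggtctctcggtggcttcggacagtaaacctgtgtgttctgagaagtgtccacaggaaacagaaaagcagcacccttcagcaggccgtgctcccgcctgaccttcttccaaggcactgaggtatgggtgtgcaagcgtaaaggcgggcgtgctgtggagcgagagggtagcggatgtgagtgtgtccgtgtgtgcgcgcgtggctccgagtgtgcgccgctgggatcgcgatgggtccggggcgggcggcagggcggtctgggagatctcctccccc
Tnn: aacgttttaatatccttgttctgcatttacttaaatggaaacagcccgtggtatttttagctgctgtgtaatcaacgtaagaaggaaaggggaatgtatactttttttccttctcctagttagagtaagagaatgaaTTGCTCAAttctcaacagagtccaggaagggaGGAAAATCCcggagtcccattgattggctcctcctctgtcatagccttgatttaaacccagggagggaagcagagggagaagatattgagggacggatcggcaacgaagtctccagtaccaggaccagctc
Frmpd4: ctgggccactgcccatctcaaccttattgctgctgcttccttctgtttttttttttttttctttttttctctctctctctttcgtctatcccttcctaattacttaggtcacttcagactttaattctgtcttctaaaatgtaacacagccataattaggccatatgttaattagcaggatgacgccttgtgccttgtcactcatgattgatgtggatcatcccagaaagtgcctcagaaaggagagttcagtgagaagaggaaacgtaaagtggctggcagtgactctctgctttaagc

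The motifs sought on both strands were TATAAA (the TATA box), TGANTCA (AP-1), TTGCNNAA (C/EBP) and GGNNTTTCC (NF-kB), with any overlap counted for each. The start of Tnn held a C/EBP and an NF-kB match, and those of Ccl19, Cxcl14 and Frmpd4 held none of the 4. Among the genes highest over other fibroblasts, 4 of 12 starts held the C/EBP letters (Cxcl13, Ptx3, Steap4 and Adh7) and 3 the TATA box, against 10.8% and 13.6% of 32851 starts in the table. Among the genes highest after injury, 4 of 10 held the C/EBP letters, and 2 each those of AP-1 and NF-kB, against 7.81% and 5.82% of all starts. Among those lowest after injury, 2 of 9 held the C/EBP and 2 the AP-1 letters. The start of C3 itself held a TATA box and a C/EBP match. A match is only a run of letters in this window.

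The control cells were not alike among themselves. Over 1959 genes, the median ratio of the variance between the 113 cells to the variance that counting alone gives was 1.82, and it was over 5 for 282 genes. Collagen Col3a1, Gsn, the calcification inhibitor Mgp and Tnfaip6, a hyaluronan-binding protein, varied most. Col3a1 ranged over 8.28 to 347 UMIs per 10000, with a median of 61.7, and its rank followed that of Col1a1 across the cells (Spearman's rho 0.84, 113 cells that share a library and their depth). Mgp ranged over 0 to 224 per 10000 with a median of 8.01. Igfbp3, a carrier of insulin-like growth factors, was in 61 cells and reached 159 per 10000. Monocyte chemokines were restricted to few cells. Ccl2 was in 14 cells and Ccl7 in 17, and 11 cells held 98.8% of the Ccl2 and 96.3% of the Ccl7 UMIs. All 14 Ccl2 cells also had Cxcl1, a neutrophil chemokine found in 73 of the 113. Inmt and Dpep1 were seen together in 39 cells, 13 cells had Inmt alone and 61 Dpep1 alone, a split that the rule on their sum shapes.

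The sodium channel gene Scn7a supplied most of the Schwann cell marker list, with 64 UMIs in the injured and 255 in the control cells. It was in 13 of 15 injured and 89 of 113 control cells. Ccl19 was in 35 and Cxcl13 in 24 control cells, and 7 had both.

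After injury the summed C3 Dpep1 fibroblasts had more of Postn, Tnc and fibrillar collagens and less of Gsn, Zbtb16 and Ccl11. Deep cells add most to these sums. The 6 deepest injured cells had 25221 to 42691 UMIs each, of 294152 in all 15. They had 1.64 to 7.53 Gsn UMIs per 10000, against 4.38 to 251 in the remaining injured cells and at least 102 in control cells. Leaving out all 6 was not tested, nor was whether injured and control cells are the same kind of cell. Of 5081 genes counted, 429 were at least 2-fold higher than in control cells, a background of 8.44%, and 588 lower, or 11.6%, with a median of -0.07 over all genes. For 175 genes the counting interval lay wholly above 2-fold higher, and for 172 wholly below 2-fold lower. Of the 429, 360 had a UMI in at least 8 of the 15 injured cells, and 45 owed over 50% of their injured UMIs to 1 cell.

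Of 10 markers of activated fibroblasts, 8 were counted, 7 at least 2-fold higher and none lower, with a median log2 ratio of 4.13. In the other fibroblasts 9 of 10 were higher and none lower, with a median of 5.10. Over all 14846 genes counted in the other fibroblasts, 17.6% were at least 2-fold higher after injury and 14% lower. Periostin (Postn), a matrix protein of healing tissue, was at 8655 CPM in the injured and 409.8 CPM in the control cells, a log2 ratio of 4.40. It was found in 15 of 15 injured and 40 of 113 control cells, and 9 injured cells were above every control cell. Immune cells of the injury library had 179 CPM of Postn. Cthrc1, a secreted protein of activated fibroblasts, was at 571 CPM in 12 injured cells and 9.99 CPM in 10 control cells, a log2 ratio of 5.79 (5.02 to 6.78), next to 5.77 in other fibroblasts. Tenascin C (Tnc) was at 1292 CPM in 9 injured cells and 3.08 CPM in 4 control cells, a ratio of 8.55 (7.35 to 10.60), and of 4.71 in other fibroblasts. Other fibroblasts had more Tnc in both libraries, 1752 CPM after injury and 66.8 CPM in control. The larger ratio of the C3 Dpep1 cells thus came from their low control level. Of the injured cells, 1 with 42691 UMIs had 42.2 Tnc UMIs per 10000, and 1 with 34409 UMIs had 35.5. The others had at most 11.7.

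The sum of the activated list, in UMIs per 10000, was 30.3 to 402 in the injured cells, with a median of 84.9, and 0 to 45.2 in the control cells, with a median of 5.86. The ranges overlapped, and 11 of 15 injured cells were above the highest control cell. Tenascin N (Tnn), the neutrophil chemokine Cxcl5, the interleukin 33 receptor Il1rl1 and Lrrc15, a marker of myofibroblasts, had no UMI in the control cells. Against the 3 counts that a count of 0 allows over the control cells, Tnn was at least 177-fold, Cxcl5 at least 98.8-fold, Il1rl1 at least 76.7-fold and Lrrc15 at least 75.2-fold higher after injury. They were in 5, 6, 3 and 6 of the 15 injured cells. The deepest injured cell held 77 of the 120 Tnn UMIs, and without it Tnn was at least 74.1-fold higher. A single cell also held 38 of 52 Il1rl1 and 36 of 67 Cxcl5 UMIs. In other injured fibroblasts Tnn was at 443 CPM and Lrrc15 at 268 CPM, against 408 CPM and 173 CPM in the C3 Dpep1 cells.

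Some of the highest ratios came from 1 cell. All 69 injured UMIs of the growth factor Ereg were in 1 cell, the deepest, and only 1 control cell had a UMI of it. Without the deepest cell no injured Ereg UMI was left. The ratio of 0.79 then computed depends on the fraction of a count added to each sum, and shows no higher level after injury. Of 57 injured UMIs of the collagen Col11a1, 54 were in 1 cell, as were 118 of 146 of the interferon-induced chemokine Cxcl10 and 152 of 209 of the receptor Gfra1. The fibrillin Fbn2 was in 7 injured cells at 303 CPM and in 2 control cells at 1.54 CPM. The imprinted genes H19 and Mest were at 3213 CPM and 262 CPM in the injured cells, against 58.4 CPM and 8.46 CPM in the control cells. H19 was in 10 injured and 7 control cells. The Wnt antagonist Sfrp2 was at 4460.3 CPM in 10 injured cells and 107 CPM in 16 control cells, with 610 of its 1312 injured UMIs in 1 cell. In other fibroblasts its ratio was 3.99, against 5.38 here.

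Matrix genes are given by list. Of 10 fibrillar and associated collagens counted, 8 were at least 2-fold higher and none lower, with a median of 1.74, next to 1.67 in other fibroblasts. Col1a1 was at 24464 CPM in the injured and 5165 CPM in the control cells, and Col3a1 at 24739 CPM in the injured and 9910.2 CPM in the control cells. Of 19 elastic fibre genes, 11 were at least 2-fold higher and 2 lower (median 1.15), the crosslinking enzyme Lox by 3.02 and Emilin1 by 2.84. Ltbp4 was lower by a log2 ratio of -2.24. In other fibroblasts 8 of 20 elastic fibre genes were higher and 2 lower (median 0.69). Of 6 contractile genes counted, 5 were higher and none lower, next to 12 of 14 higher and 1 lower in other fibroblasts. However, Acta2, the smooth muscle actin of myofibroblasts, was at 34 CPM in the injured C3 Dpep1 cells against 523 CPM in other injured fibroblasts. Acta2 had too few UMIs in C3 Dpep1 cells to be counted between libraries. In the injured library the proliferation list was lower in these cells, with 20 G2M genes summing to 64.6 CPM against 674 CPM in the other fibroblasts. All 20 had ratios at least 2-fold lower (median -3.07). However, 11 of the 20 had no UMI in the injured C3 Dpep1 cells, where a count of 0 allows up to 10.2 CPM. The ratios of those 11, and with them the median, depend on the fraction of a count added to each sum. The summed CPM does not. Between the libraries no G2M gene reached the count limit in C3 Dpep1 cells, and all 20 were higher in the other fibroblasts.

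Gsn and genes that glucocorticoids or the clock control were lower after injury. Gsn had 1.64 to 251 UMIs per 10000 in the injured cells, with a median of 22.3, and 102 to 950.2 in the control cells, with a median of 279.8. The ranges overlapped in part, since 10 of 15 injured cells were below every control cell. The transcription factor Zbtb16, which glucocorticoids induce, was at 40.8 CPM in 7 injured cells and 545 CPM in 103 control cells, a log2 ratio of -3.68 (-4.70 to -2.93). The glucocorticoid and circadian list had 16 genes counted, of which 10 were lower by 2-fold or more and 1 was higher. Its median was -1.28, next to 11 of 18 lower and a median of -1.49 in other fibroblasts. Tsc22d3 was at -2.50, Fkbp5 at -1.98 and the clock gene Nr1d1 at -1.82. The eosinophil chemokine Ccl11 was at 34 CPM in the injured and 434 CPM in the control cells, a ratio of -3.60, next to -3.34 in other fibroblasts. Igfbp3 was at 64.6 CPM in 3 injured cells and 865 CPM in 61 control cells, a ratio of -3.71, against -0.74 in other fibroblasts.

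Detoxification genes were lower too, 9 of 19 by 2-fold or more, while 2 were higher (median -0.97). In other fibroblasts 15 of 27 were lower and 3 higher (median -1.38). The monooxygenase Fmo2 had 1 UMI in the injured cells and 214 UMIs in 39 control cells, a log2 ratio of -5.02 (-10.91 to -3.10). Galnt15 and Trhde, a peptidase that degrades thyrotropin-releasing hormone, had 2 and 3 injured UMIs, against 223 and 288 control UMIs. Frmpd4, Foxp2, Lims2, Mdfic2 and Ramp1, a partner of the calcitonin receptor-like receptor, had no UMI in the injured cells. Against the 3 counts that 0 allows there, they were at least 7.09-fold, 5.88-fold, 5.8-fold, 5.73-fold and 5.28-fold lower. Of these, Lims2 was in 50 control cells, Ramp1 in 25, Frmpd4 in 18, Foxp2 in 17 and Mdfic2 in 9. In other fibroblasts Foxp2 had a ratio of -0.21 and Ramp1 of -4.20. Parenchymal markers were lower as well, 6 of 9 by at least 2-fold with 2 higher. Among the lower ones were Gdf10 (-2.44), Sparcl1 (-2.64) and Col4a1 (-1.53). In other fibroblasts 7 of 10 parenchymal markers were lower and 2 higher (median -1.24).

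**Figure D4:**
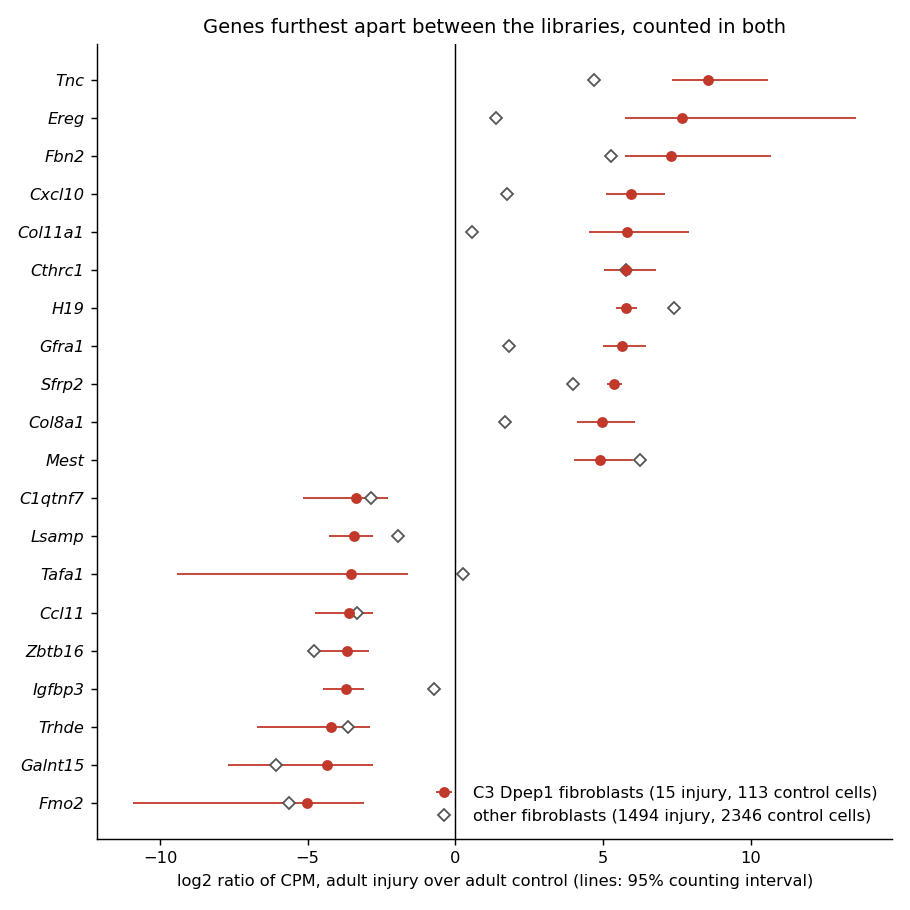
Log2 ratio of CPM, adult injury over adult control, in C3 Dpep1 fibroblasts (red, with 95% counting intervals) and in the other fibroblasts (open diamonds), for the genes furthest apart that have a UMI in both libraries. Ereg, Cxcl10, Col11a1 and Gfra1 lie far above the other fibroblasts and rest mainly on 1 injured cell each, while Cthrc1, Ccl11 and Fmo2 lie close to them.

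Of the 15 genes highest over other fibroblasts, 7 were within 2-fold between injured and control cells, 7 were lower and 1 was higher after injury. Over all genes counted 8.44% were higher and 11.6% lower. The 15 were ranked by the smaller of their ratios in the 2 libraries, so genes that fell in the injured C3 Dpep1 cells alone tended to be left out. The split was thus set in part by the choice. Cxcl14 had a log2 ratio of -0.06 (-0.29 to 0.15) between the libraries, Lpl of -0.16 (-0.39 to 0.05), Mme of -0.39 (-1.16 to 0.26), Ndnf of -0.31 (-1.38 to 0.54), C4b of -0.58 (-0.93 to -0.26) and Steap4 of 0.59 (0.27 to 0.90). The intervals of Mme and Ndnf, and that of Bmper (0.88, 0.63 to 1.13), include a 2-fold difference, and the other 4 do not. They cover counting error and not the spread between cells, so they cannot show that a level held after injury. Among the control cells the variance of Cxcl14 was 38.2 times that of counting alone. Ptx3 was higher by 2.96, while Chrm3 was lower (-2.34), as were Adh1 (-2.55) and Astn2 (-2.55). Igf1 was higher by 1.92, and Igfbp4 by 3.39 with 15 of 15 injured cells positive. Apoe was lower by a ratio of -2.99. Immediate early genes, which tissue digestion can also induce, were mixed, with 8 of 20 lower and 4 higher. Fos was at 1509 CPM in the injured and 4603 CPM in the control cells, and Nr4a2 at 585 CPM and 70 CPM.

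**Figure D5:**
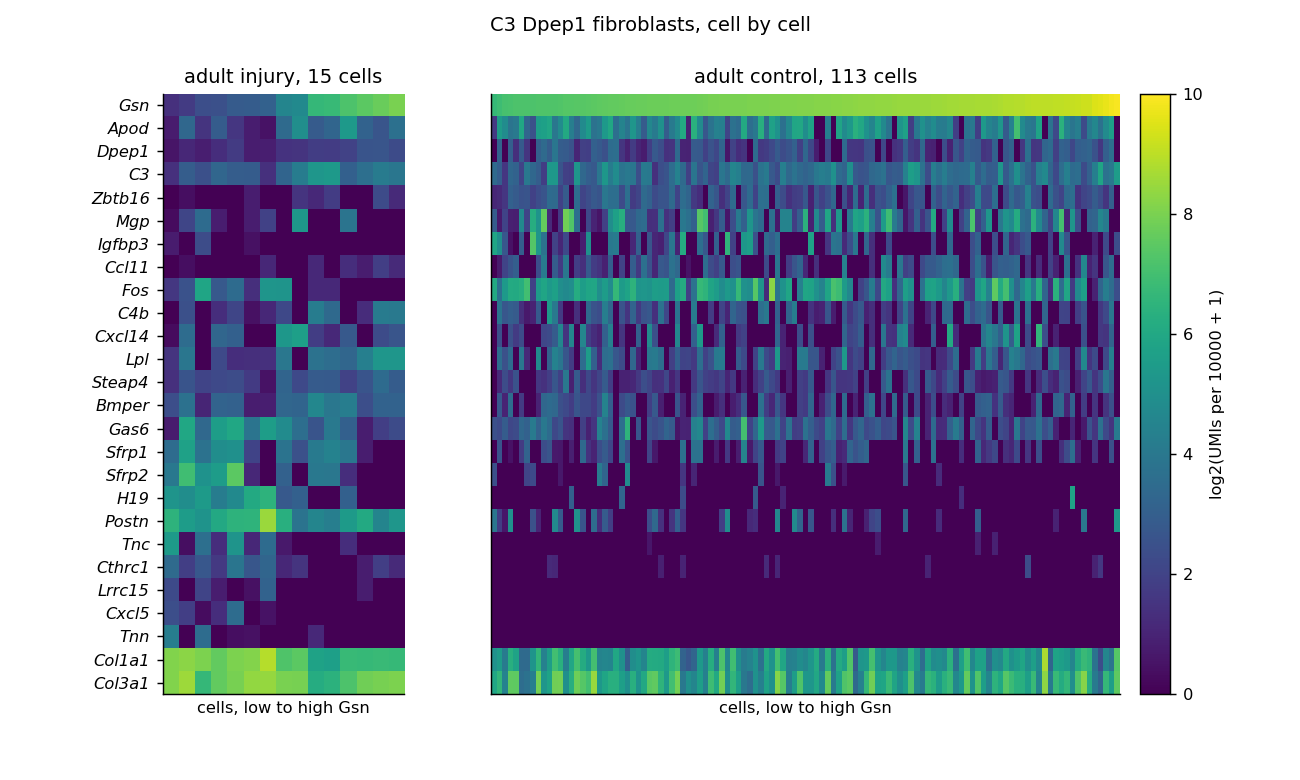
Log2 of UMIs per 10000 plus 1 for 26 genes (rows) in 15 injured (left) and 113 control (right) C3 Dpep1 fibroblasts, each ordered from low to high Gsn. H19, Tnc and Lrrc15 are seen mostly in the injured cells with low Gsn, and Postn in all 15.

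The injured cells differed widely from each other. In 5 of them Gsn lay within the control range, at 105 to 251 UMIs per 10000, and in 10 it was 1.64 to 101. The edge was the lowest single control cell, at 102. The injured cells at 101 and 105 fell on its 2 sides, though both had Sfrp2 and neither had an H19 or Tnc UMI. The 5 had 6758 to 13898 UMIs and the 10 had 8019 to 42691 UMIs, and the part of depth in this was not tested. Mitochondrial UMIs were a median of 2.49% in the injured and 1.55% in the control cells. Among the 5, 1 had an H19 UMI, 1 a Tnc UMI and 2 an Sfrp2 UMI. Among the 10, 9 had H19, 8 had Tnc and 8 had Sfrp2. Postn was present in all 15, and the activated list summed to 30.3 to 84.9 per 10000 in the 5 and 33.7 to 402 in the 10. Lpl was in all 5 and in 8 of the 10. The 3 cells with the most Gsn UMIs had 248, 192 and 162, with 26, 28 and 29 Lpl UMIs and no Sfrp2 UMI. The deepest cell had 7 Gsn, 8 Lpl and 64 Sfrp2 UMIs.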

How the data were processed

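The deposited files hold, per the file headers, UMI counts for each gene and barcode from Cell Ranger 8.0.1, for 33696 genes, aligned to GRCm39 per the submitters' processing notes. Whether the matrices had been filtered for doublets is not given in the sources used here. Groups come from the labels. Counts of the chosen cells were summed in each library, given as CPM with exact Poisson intervals, and compared as log2 ratios with 0.5 counts added and intervals from the exact binomial distribution. Genes were counted with at least 50 UMIs in both groups together. Genes named are the 15 highest and 15 lowest ratios with at least 50 CPM in the higher group, 8 and 8 against universal fibroblasts and tenocytes, and up to 4 a list. Mitochondrial, ribosomal, predicted, hemoglobin and Y-linked genes, Xist and Tsix, and the genes of the rule were left out of this naming, as were genes over 10 times higher in immune, endothelial, mural or glial cells. Other genes named beside a list were chosen after their values were seen. The cells and the gene lists were chosen with earlier results of these data known. Of the list genes, 5 are absent from the files. Depth was 68644322 to 128626912 UMIs a library. Doublets were kept; Scrublet in scanpy 1.11.5 gave an alternative that removes 0.8% of cells per 1000 cells of a library. Python 3.11.15, numpy 2.4.6, scipy 1.17.1, scikit-learn 1.9.0 and matplotlib 3.10.9 were used, and the ratios were tested on simulated data. The alternatives were other limits, thinning to 3000 UMIs, other filters, 5 counts added, a median shift and equal weight for each cell. Some genes are not reported here.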

Additional observations from a re-analysis of the deposited data

How the results depend on the processing

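With 15 injured cells and 1 library a group, depth limits every ratio after injury. The share of cells in the injury library was 0.0253% after thinning and 0.0865% with Inmt plus Dpep1 of at least 4 UMIs. The share in the control library was 0.761% after thinning, 4.5% with no C3 limit and 1.23% with Inmt plus Dpep1 of at least 4 UMIs. The alternatives with thinning and with the limit of 4 left under 5 injured cells, so no ratios were computed for them. Genes at least 2-fold higher after injury numbered 3127 with no filter on low counts and 112 with at least 200 UMIs. Those at least 2-fold lower numbered 1987 with no filter, 193 with at least 200 UMIs, 894 with no C3 limit and 280 with 5 counts added. Higher than other fibroblasts in both libraries were 1422 genes with 5 counts added, 4473 with no filter and 168 with at least 200 UMIs, and lower were 42 with 5 counts added and 224 with at least 200 UMIs. Adding 5 counts to sums of unequal totals raises the smaller group by construction, and a filter changes the number of genes counted. Of the values of single genes under all alternatives, 9 changed sign, 395 moved otherwise and 4042 did neither. Between the libraries, Cxcl13 was at 0.35 with equal weight for each cell and Pappa at -0.16 with no C3 limit. Over other control fibroblasts, with no C3 limit, Actn1 was at 0.17, Ciart at 0.01 and Lrrc15 at 0.48. There, with 5 counts added, Lrrc15 was at 0.61, Mcm2 at 0.85 and Pla2g2a at 0.05, and Rsad2 was at -0.11 with equal weight. The causes of the other changes were not tested. Leaving out the deepest injured cell, chosen after seeing the data, kept each count of genes within 1.5 times. No paired analysis was possible because each group is 1 library.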
